A study of Mus musculus with 14 samples.

Results

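Blood neutrophils of mice lacking the clock factor BMAL1, taken at midday, were compared here with neutrophils of wild-type mice taken in the evening. The members were the libraries that the labels give to these groups, 6 of the 14 libraries in the series. Of them, 3 were labelled as carrying floxed Bmal1 alleles and Mrp8Cre and were collected at ZT5 (zeitgeber time, counted in hours from lights on), clock time 12 h, and 3 were wild type (WT) collected at ZT13, clock time 20 h. All mice were male C57BL/6 aged 7 to 10 weeks. Red cells were lysed, neutrophils were sorted by staining for Ly6G, and the RNA went through an amplification kit made for single cells before library preparation. Mrp8Cre places the Cre recombinase under the promoter of MRP8, another name of S100A8, which is active in the neutrophil lineage. The labels call the other mice WT and name no floxed allele or Cre for them, without saying whether they were littermates. Genotype, Cre and hour therefore differ together as labelled and cannot be told apart in this contrast. The comparison asks how close the mutant at midday lies to the evening state of the wild type. WT libraries at ZT5 (n = 3), and libraries of Cxcr2 (n = 2) and Cxcr4 (n = 3) floxed mice with the same Cre at ZT5, are given beside the results where they place a value.

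BMAL1, encoded by Arntl, pairs with CLOCK and activates genes through E-box sequences, among them the Per and Cry repressors that close the daily feedback loop. Circulating neutrophils change over the day. In mice, freshly released cells appear in the blood at night, and during the light phase they age, gaining Cxcr4, before they leave the circulation. Mice are active at night, and their glucocorticoid hormones peak around the onset of darkness, so genes that glucocorticoids induce tend to be high at that hour.

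Values are the deposited normalized read counts, each a whole number of reads times 1 constant per library, listed in the order of replicates 2, 8 and 9 for WT ZT13, 2, 3 and 4 for Bmal1, and 5, 8 and 9 for WT ZT5. The WT ZT13 libraries held 4082276 to 5454088 reads and the Bmal1 libraries 5426845 to 6449119. Log2 differences are Bmal1 minus WT ZT13 on log2(value + 1), which understates the change of low genes, and errors after ± are SD with n = 3. A gene was called when its limma p, after Benjamini-Hochberg adjustment over the 11255 of 11288 genes tested, was below 0.05. Nothing in the labels ties a replicate to its own animal, and the p-values measure only the spread between these samples. The targeted gene gave no check of the labels. Arntl (chromosome 7, 113207465 to 113314126 on GRCm38) was listed at 0, 5.07 and 0.731 in WT ZT13 and at 4.37, 0 and 0 in Bmal1, low in both groups, and reads outside the deleted part count as well. Neutrophil markers were abundant in both groups. Csf3r, the receptor for granulocyte colony-stimulating factor, was at 3447 to 3879 in WT ZT13 and 3782 to 3999 in Bmal1, and all 27 neutrophil identity genes were measured.

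Few genes passed the test between the Bmal1 and the evening libraries. Of 11255 genes tested, 18 were called (0.160%), 5 higher in Bmal1 (0.0444%) and 13 lower (0.116%), and the groups did not overlap for any of the 18. At an unadjusted p under 0.05 there were 1033 genes, 458 higher and 575 lower, where chance would give 563. Without regard to the test, the 3 Bmal1 values all lay above the 3 WT ZT13 values for 750 genes (6.66%) and all below them for 865 (7.69%). The median log2 difference over all genes was -0.04. The difference was smaller than 0.5 for 55.9% of genes and larger than 1 for 18.6%. An uncalled gene is not thereby shown to be alike, because the median 95% interval reached 1.38 to either side. The interval lay wholly within ±1 for 2628 genes (23.3%). These were mostly abundant genes: among the 3752 genes with a mean value over all libraries of at least 33.7, 67.7% had such an interval, and all 18 calls fell there. The middle 3751 genes gave 2.37% and the lowest 3752 gave none, so for low genes neither closeness nor difference could be shown at this depth. The number of calls rested on how the spread was estimated: leaving the WT ZT5 libraries out of the fit gave 53 calls, 20 higher and 33 lower, including all 18.

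**Figure D1:**
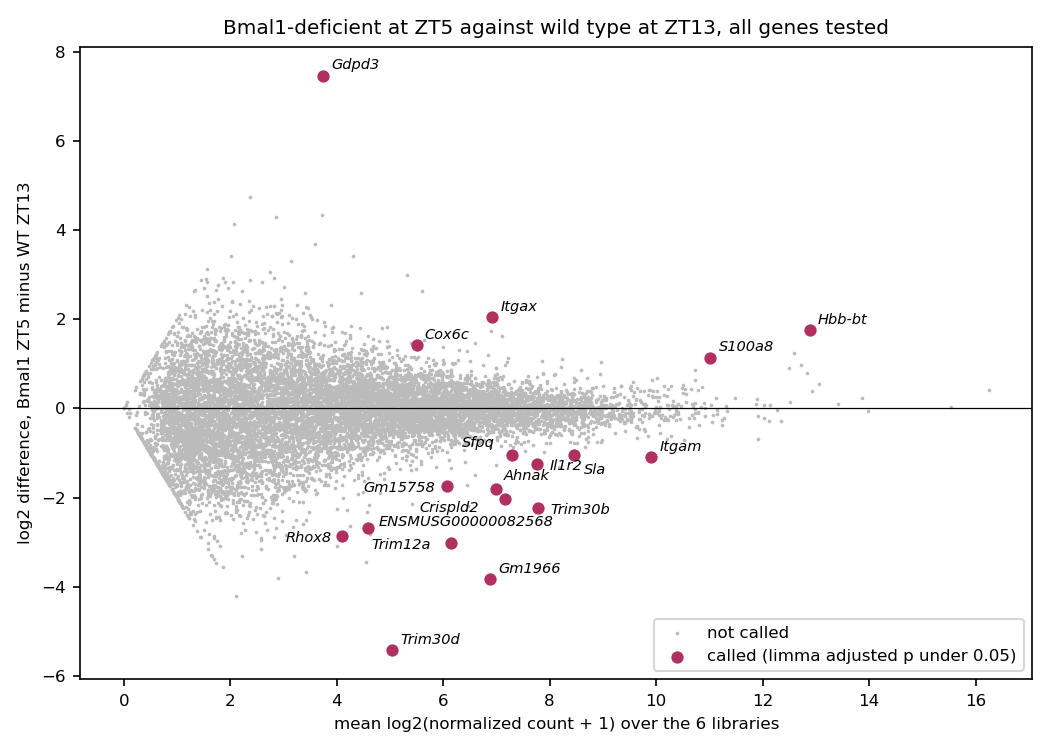
Each point is 1 of the genes tested, with its mean log2(normalized count + 1) over the 6 libraries on the x axis and its log2 difference, Bmal1 ZT5 minus WT ZT13, on the y axis. The 18 called genes are red and named, and 13 of them lie below 0.

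The genes that set evening apart from midday in the wild type were then followed into the mutant. The same fit called 9 genes between WT ZT13 and WT ZT5 (0.0800% of those tested), 5 higher and 4 lower at ZT13. They were chosen with the WT ZT13 libraries that also enter the present contrast, so their levels are a description. A gene chosen for high values in those libraries tends to be lower in any other group. All 5 genes that are high in the WT evening were lower in every Bmal1 library than in any evening library, at or near the WT midday level, and 3 of them were called between Bmal1 and WT ZT13. Bmal1 values for the 4 genes that are low in the WT evening were instead in or around the WT evening range for Cd74 and Spn, between the 2 WT groups for mt-Nd1 and scattered for Rn7sk.

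Il1r2, the decoy receptor that captures interleukin-1 without signalling, was at 326, 338 and 337 in WT ZT13 and at 165, 116 and 145 in Bmal1, beside 94.7, 153 and 117 in WT ZT5. The evening libraries stood within a narrow range, and every Bmal1 value was below them. The mean was 142 ± 24.8 in Bmal1 against 334 ± 7.02 in WT ZT13 (log2 difference -1.24, SE 0.21, limma adjusted p = 0.0059). Crispld2, which encodes a secreted protein that binds lipopolysaccharide, was at 162, 444 and 338 in WT ZT13, 49.8, 71.6 and 93.8 in Bmal1 and 23.5, 77.5 and 31.9 in WT ZT5. Bmal1 and WT ZT5 overlapped each other and lay below all evening values, and Bmal1 differed from WT ZT13 by -2.04 (SE 0.36, limma adjusted p = 0.0059). Sla, encoding an adaptor that dampens receptor kinase signalling, was at 624, 462 and 438 in WT ZT13, 224, 218 and 288 in Bmal1 and 200.2, 308 and 267 in WT ZT5, a difference of -1.05 (SE 0.20, limma adjusted p = 0.011). Again no Bmal1 library reached the evening range. Fkbp5, a co-chaperone of the glucocorticoid receptor that is itself induced by glucocorticoids, was at 189, 88 and 250.2, 60.9, 50.6 and 59 and 33.8, 25.8 and 48.2 in the same 3 groups. The Bmal1 values lay between the other 2 groups without overlapping either, and the difference from WT ZT13 did not pass (-1.49, 95% interval -2.19 to -0.79, limma adjusted p = 0.0678). Ptp4a1, a small membrane-bound phosphatase, was at 603, 481 and 552, 297, 336 and 267 and 212, 329 and 259.6 and did not pass either (-0.86, 95% interval -1.27 to -0.45, limma adjusted p = 0.0736). Both passed when the WT ZT5 libraries were left out of the fit (adjusted p = 0.0298 and 0.0159). The call of Il1r2 was lost without Bmal1 replicate 3 (adjusted p = 0.0676), that of Crispld2 without Bmal1 replicate 2 or WT ZT13 replicate 8 or 9 (up to 0.0917), and that of Sla without Bmal1 replicate 2 or 3 or WT ZT13 replicate 2 (up to 0.106). Sla lies inside Tg and Il1r2 overlaps Gm16894, each on the other strand, and Crispld2 overlaps Gm20388 on its own strand. Whether the counting used strand is not given, so reads of such pairs cannot be told apart.

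The other Cre mutants at ZT5 were low in most of the same genes. Il1r2 was at 174 and 165 in the Cxcr2 libraries and 98.5, 88.9 and 78 in the Cxcr4 libraries, and Fkbp5 was at 50.9 and 77.9 and 40.0, 28.1 and 36.1. Crispld2 was at 77.3 and 61.3 in Cxcr2 but at 206, 206 and 267 in Cxcr4, where it overlapped the evening range. Ptp4a1 was at 177 and 265 and 395, 342 and 421, and Sla at 242 and 269 and 384, 413 and 382. For all of these genes but Crispld2, no library taken at ZT5, whatever its genotype, reached the lowest evening value. The genes were chosen for high values in WT ZT13 against WT ZT5, which favours this order, so it is a description.

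Promoters of the genes that are high in the WT evening are shown so that they can be read for the element that BMAL1 and CLOCK bind. RefSeq windows on GRCm38.p6, from 250 bases before to 50 after the annotated start, were available for 16 of 24 genes looked up. They included 4 of the 5 genes that are high in the WT evening, and Spn among those that are low. The capitals mark CACGTG, the E-box, which reads the same on both strands and is also bound by other helix-loop-helix factors. It was found in 3 of the 16 windows, those of Crispld2, Fkbp5 and Il1r2, beside 7.15% of all 32851 windows. The window of Spn, not printed, held none. The windows are Crispld2 at chr8:119992188-119992487, plus strand, Fkbp5 at chr17:28486100-28486399, minus strand, Il1r2 at chr1:40085843-40086142, plus strand, and Ptp4a1 at chr1:30949706-30950005, minus strand, each written 5′ to 3′.
Crispld2: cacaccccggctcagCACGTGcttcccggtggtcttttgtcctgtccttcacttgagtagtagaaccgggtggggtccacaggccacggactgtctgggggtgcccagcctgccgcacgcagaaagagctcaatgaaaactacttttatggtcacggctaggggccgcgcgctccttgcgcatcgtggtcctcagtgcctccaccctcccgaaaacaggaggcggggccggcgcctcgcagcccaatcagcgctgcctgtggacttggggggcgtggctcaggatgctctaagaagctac
Fkbp5: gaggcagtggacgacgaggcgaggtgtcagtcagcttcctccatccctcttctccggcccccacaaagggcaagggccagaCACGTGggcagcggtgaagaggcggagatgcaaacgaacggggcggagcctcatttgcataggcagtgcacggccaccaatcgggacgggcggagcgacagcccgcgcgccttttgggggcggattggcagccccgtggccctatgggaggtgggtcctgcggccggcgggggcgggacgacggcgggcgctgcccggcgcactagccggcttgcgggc
Il1r2: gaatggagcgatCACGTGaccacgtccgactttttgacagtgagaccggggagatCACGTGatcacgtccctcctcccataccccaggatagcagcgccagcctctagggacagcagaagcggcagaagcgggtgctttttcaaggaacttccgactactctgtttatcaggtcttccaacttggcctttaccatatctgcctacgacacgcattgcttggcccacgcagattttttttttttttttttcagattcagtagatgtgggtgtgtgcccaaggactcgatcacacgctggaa
Ptp4a1: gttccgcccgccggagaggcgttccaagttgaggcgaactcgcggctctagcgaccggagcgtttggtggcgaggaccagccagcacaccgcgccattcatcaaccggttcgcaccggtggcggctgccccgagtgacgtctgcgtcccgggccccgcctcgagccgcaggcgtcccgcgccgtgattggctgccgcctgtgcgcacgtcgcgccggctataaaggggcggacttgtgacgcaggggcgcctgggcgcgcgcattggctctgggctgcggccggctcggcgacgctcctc
The E-box starts at base 16 of the Crispld2 window, at base 82 in Fkbp5, and at bases 13 and 56 in Il1r2. The Ptp4a1 window holds no CACGTG. The letters ACANNNTGT, the spaced core of a glucocorticoid response element read on either strand and not overlapping the E-box, were in none of these 4 windows. They were in those of Itgax and S100a8, beside 6.85% of all windows. A match is a stretch of letters only, and binding was not measured.

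The genes that are low in the WT evening split differently. Spn, the surface sialomucin CD43, was at 36.8, 63 and 66 in WT ZT13 and 66.1, 52.6 and 57.2 in Bmal1, while WT ZT5 stood at 198, 106 and 229. Every Bmal1 value lay below every WT ZT5 value, and the difference from WT ZT13 was 0.12 (95% interval -0.50 to 0.75). Cd74, the invariant chain of MHC class II carried mainly by B cells, was at 14.3, 113 and 74.3 in WT ZT13, 90.0, 61.6 and 52.4 in Bmal1 and 894, 145 and 309 in WT ZT5, a difference of 0.40 (-0.72 to 1.53). mt-Nd1, a mitochondrially encoded subunit of complex I, was at 17.6, 30.6 and 11, 38.5, 43.5 and 34.8 and 459, 79 and 96.4 in these groups. Bmal1 lay above the evening libraries without overlap, but the difference of 1.05 (-0.03 to 2.14) did not pass. For Cd74 and mt-Nd1, WT ZT5 replicate 5 was the highest midday library. Rn7sk, a small nuclear RNA that restrains transcription elongation, was listed at 0 in every WT ZT13 library and at 303, 0 and 63.8 in Bmal1, so the Bmal1 libraries disagreed among themselves. Its difference of 4.76 did not pass (limma adjusted p = 0.218).

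**Figure D2:**
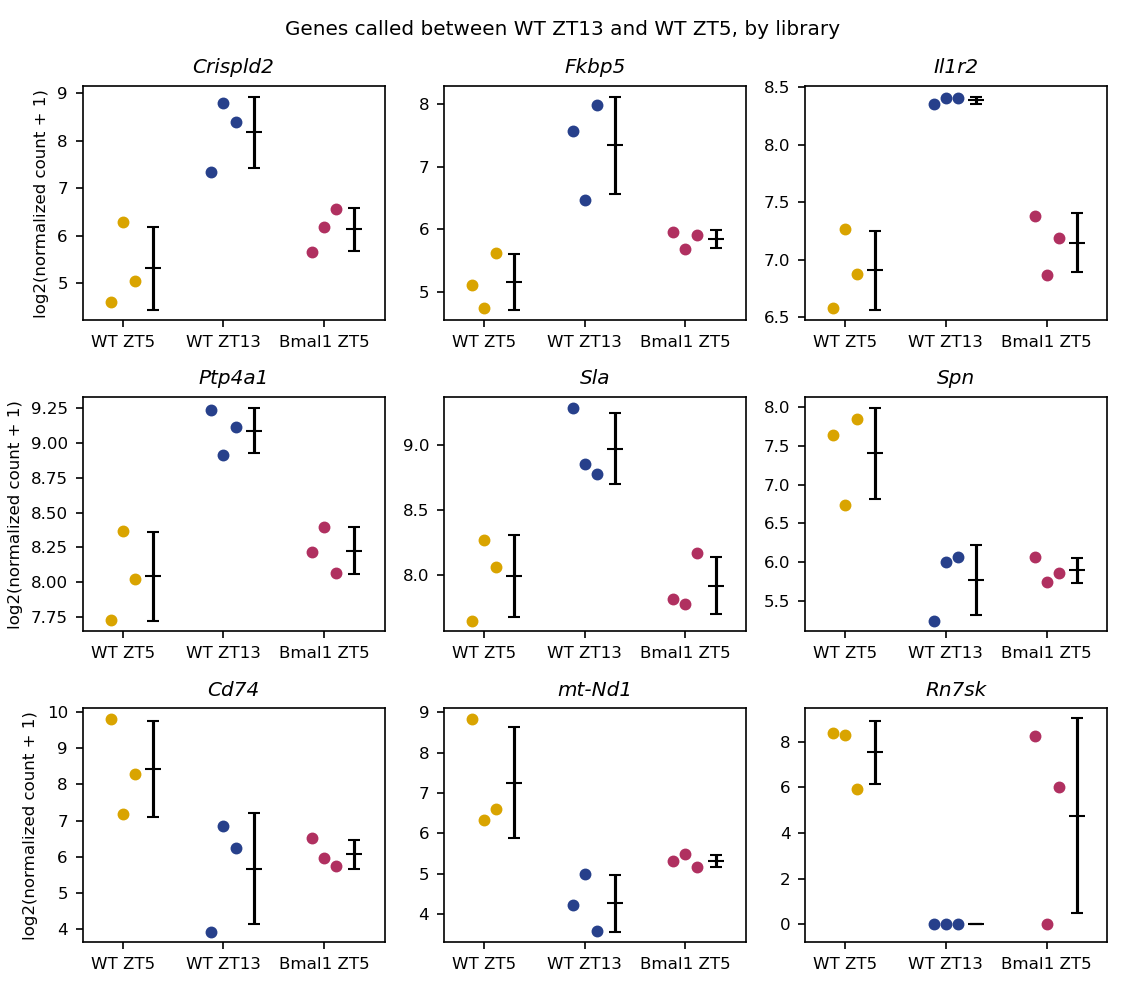
Each panel is 1 of the 9 genes called between WT ZT13 and WT ZT5, with points for the libraries of WT ZT5, WT ZT13 and Bmal1 ZT5 on a log2(normalized count + 1) scale, and a bar for the mean and SD (n = 3). In the panels of Crispld2, Fkbp5, Il1r2, Ptp4a1 and Sla every Bmal1 point lies below every WT ZT13 point.

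Clock genes themselves gave no call. Of 15 core clock genes, 9 were tested, with a median log2 difference of -0.30 beside -0.04 for all genes. That median was positive without Bmal1 replicate 2 or 4 and ranged from -0.44 to 0.08 over the alternatives. Per1, a repressor of the loop that glucocorticoids also induce, was at 310.3, 202 and 239.9 in WT ZT13 and 164, 224 and 202 in Bmal1 (-0.34, 95% interval -0.80 to 0.13). Csnk1d and Csnk1e, the casein kinases that phosphorylate PER proteins, differed by 0.23 (-0.14 to 0.60) and -0.53 (-0.95 to -0.11). Cry1, a repressor of BMAL1 and CLOCK, was at 38.4, 39.3 and 16.6 and 40.5, 42 and 64.5. The Bmal1 values were the higher ones without overlap, and the difference of 0.69 (-0.09 to 1.47) did not pass. Clock, the partner of BMAL1, was at 6.81, 11 and 9.26 in WT ZT13 and 17.1, 3.35 and 0 in Bmal1, and an interval of -3.01 to 0.61 left its direction undetermined. Among the clock output factors, 7 of 9 were tested and none was called (median -0.15, of the other sign without Bmal1 replicate 2 or WT ZT13 replicate 8). Dbp, a target of BMAL1, was at 0, 8.67 and 3.90 and 5.04, 9.86 and 0.522, which is 0 to 53 reads per library.

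Among glucocorticoid-induced genes the calls lay on the lower side. Of 17 tested, 2 were called, Crispld2 and Il1r2, both lower in Bmal1 and both among the evening genes above, beside 0.116% of all genes called lower. A difference below 0 was seen for 11 of the 17, beside 5970 of all 11255 genes (median -0.24, negative under all 18 alternatives, from -0.37 to -0.10). Tsc22d3, which encodes the glucocorticoid-induced leucine zipper GILZ, was at 359, 292 and 212 in WT ZT13 and 157, 240.3 and 209.9 in Bmal1, with overlap (interval -0.92 to -0.07). Klf9, another target of the receptor, was at 14, 16.9 and 11.2 and 8.07, 9.30 and 0.174, and Pik3ip1, an inhibitor of PI3 kinase, at 19.9, 6.55 and 9.99 and 3.03, 5.77 and 0. Neither passed, although no Bmal1 value reached the evening range. Other members of the list had differences near 0 or above it. Dusp1, a phosphatase that switches off MAP kinases, differed by 0.23 (-0.26 to 0.73), and Anxa1, the anti-inflammatory annexin, by -0.05 (-0.44 to 0.35).

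Genes near Arntl on chromosome 7 made up 8 of the 18 calls. The window of 20 Mb on either side of the gene held 275 of the genes tested, of which 3 were called higher and 5 lower (2.91%, beside 0.0911% of the genes outside it). No other gene of chromosome 7 was called. The part of position in these differences was not tested. Gdpd3 (chromosome 7, 126766334 to 126775649), a lysophospholipase D, was at 0 in all 3 WT ZT13 libraries and at 136, 194 and 208 in Bmal1. With 3 reads per library as the floor, it was at least 284.8-fold higher (fitted log2 difference 7.47, limma adjusted p = 3.53e-05). It was at 5.07 and 0 in the Cxcr2 and 2.80, 0 and 3.91 in the Cxcr4 libraries. Gm1966 (chromosome 7, 106596743 to 106604035), annotated as an unprocessed pseudogene, was at 380.3, 493 and 467 and 31.4, 22.7 and 38.4. No Bmal1 value came near the other groups (-3.84, SE 0.22, limma adjusted p = 1.48e-11). Trim30b, Trim30d and Trim12a, neighbouring TRIM family genes between 104299894 and 104507849, were all called lower. Trim30d was at 209, 246 and 196 in WT ZT13 and 107, 0 and 0.174 in Bmal1, Trim12a at 236, 169.8 and 200.2 and 112, 9.49 and 11.8, and Trim30b at 424, 478 and 535 and 212, 80.0 and 59.7. For all 3, Bmal1 replicate 2 was higher than replicates 3 and 4. The call of Trim30d was lost without Bmal1 replicate 3 or 4 (adjusted p up to 0.0799), and Trim genes and Gm1966 have near-identical neighbours that can share reads, so single values are uncertain. Their relative Trim30a differed by -0.77 (-1.21 to -0.32) and did not pass. Spn also lies in this window.

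**Figure D3:**
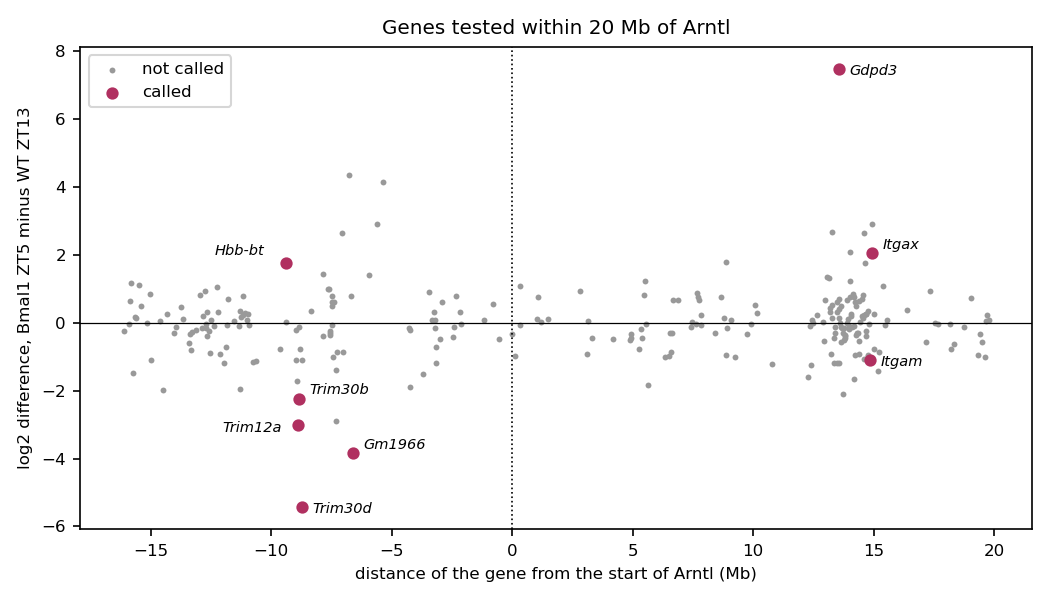
Each point is 1 of the 275 genes tested within 20 Mb of Arntl, with its distance from the start of Arntl in Mb on the x axis and its log2 difference, Bmal1 ZT5 minus WT ZT13, on the y axis. The 8 called genes are red and lie on both sides of Arntl.

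The integrin alpha chains of this window moved in opposite directions. Itgax, encoding CD11c, was at 55.2, 46.3 and 79.2 in WT ZT13 and at 324, 235 and 195 in Bmal1, so the lowest Bmal1 library was above the highest evening library (2.05, SE 0.29, limma adjusted p = 0.000553). WT ZT5, at 50.7, 64 and 81, was like the evening. Itgam, encoding CD11b, the alpha chain of the Mac-1 receptor by which neutrophils adhere and take up complement-coated particles, was at 1723, 1268 and 1268 and 583, 692 and 711 (-1.09, SE 0.19, limma adjusted p = 0.0059). Its Bmal1 values lay below all WT ZT13 and WT ZT5 values, the latter at 754, 1218 and 1241. The Cxcr4 libraries, with 2493, 2751 and 2394, were at the other extreme, and the call was lost without Bmal1 replicate 2 or WT ZT13 replicate 2 (adjusted p up to 0.0686). Hbb-bt, an adult beta globin, was at 2328, 6299 and 4737 in WT ZT13 and 12387, 14288 and 15125 in Bmal1, all above the evening (1.76, SE 0.32, limma adjusted p = 0.00839). It lost its call without Bmal1 replicate 3 or 4 or WT ZT13 replicate 2 (up to 0.0930) and shares reads with its near copy. The 22 erythroid genes summed to 30219.5 to 114062.2 in WT ZT13 and 62680.5 to 123564.7 in Bmal1. Of them 19 had a difference above 0 (median 0.41), Hbb-bt alone was called, and the part of red cell RNA was not tested.

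Outside the window, 2 genes were higher and 8 lower in Bmal1. S100a8, a subunit of calprotectin and the gene after which the promoter of the Cre is named, was at 1068, 1529 and 1646 in WT ZT13 and 3136, 3294 and 2799.9 in Bmal1, without overlap (1.14, SE 0.23, limma adjusted p = 0.0234). It was as high or higher in the other Cre mutants, at 3127 and 3617 in Cxcr2 and 3533, 5393 and 6234 in Cxcr4, and WT ZT5 stood at 1008, 1914 and 1454. Every library of a Cre mutant, all of them taken at ZT5, was above every WT library of either hour. Its partner S100a9 was at 5510.4, 5167 and 5972 and 8903, 10256 and 9625, also without overlap, and did not pass (0.79, limma adjusted p = 0.191). Cox6c, a subunit of cytochrome c oxidase that overlaps Vps13b on the other strand, was at 25.5, 35.7 and 20.7 and 78, 65.3 and 76.7 (1.42, SE 0.29, limma adjusted p = 0.0334). Cox6c was also above WT ZT13 in the other Cre mutants, at 77.35 and 56.51 in Cxcr2 and 64.72, 61.64 and 50.23 in Cxcr4. The calls of both genes depended on single libraries. That of S100a8 was lost without any 1 of the 3 Bmal1 libraries or WT ZT13 replicate 2 or 8 (adjusted p up to 0.152), and that of Cox6c without any 1 of the 3 Bmal1 libraries or WT ZT13 replicate 2 or 9 (up to 0.199).

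Among the lower genes outside the window, Ahnak, a very large scaffold protein beneath the plasma membrane, was at 127, 341 and 307 in WT ZT13 and 84.7, 58 and 61.4 in Bmal1 (-1.80, SE 0.32, limma adjusted p = 0.0059). WT ZT5, at 1091, 372 and 629, lay beyond the evening on the other side, and the order from high to low was WT ZT5, WT ZT13, Bmal1 by group means. For Ahnak the Cxcr2 libraries, at 64.35 and 76.49, were within the Bmal1 range, and the Cxcr4 libraries stood at 917, 1305 and 1124. Rhox8, a homeobox gene of the X chromosome, was at 29.5, 50.1 and 62.4 and 1.34, 11.9 and 7.48 (-2.86, SE 0.50, limma adjusted p = 0.0059). Sfpq, an RNA-binding protein of nuclear paraspeckles that overlaps Gm12940 on its strand, was at 226, 256 and 194 and 112, 102 and 111 (-1.05, SE 0.21, limma adjusted p = 0.0275). None of these 3 genes overlapped between the groups. Without 1 library, the highest adjusted p was 0.0917 for Ahnak (lost without Bmal1 replicate 3 or 4 or WT ZT13 replicate 8 or 9), 0.0772 for Rhox8 (lost without WT ZT13 replicate 9), and 0.166 for Sfpq (lost without any library but WT ZT13 replicate 9). The predicted gene Gm15758 (-1.73) and an identifier without a symbol, ENSMUSG00000082568 (-2.69), complete the called genes; with Gm1966 they fall outside the rule for named genes and were picked once their values were known. The last of these lost its call without Bmal1 replicate 4 or any 1 of the WT ZT13 libraries (adjusted p up to 0.175). Just beyond the threshold stood Mki67, a marker of proliferating cells, at 271, 172 and 164 and 85.4, 95 and 66.5 (-1.26, limma adjusted p = 0.0504).

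For each called gene, the WT ZT5 mean can be placed between the other 2 groups. It lay nearer to Bmal1 for 5 of the 18, namely Il1r2, Crispld2, Sla, Cox6c and Gm15758, and nearer to WT ZT13 for the other 13, among them every called gene of the Arntl window, S100a8, Ahnak and Sfpq. For those 13 genes except Trim30d, the Bmal1 values overlapped neither wild-type group. Bmal1 replicate 2 was above WT ZT5 replicate 5 for Trim30d.

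Genes of mature neutrophils included 3 called genes and many resolved to within ±1. Of 27 neutrophil identity genes, 1 was called higher (S100a8) and 2 lower (Itgam and Il1r2), the median was 0.06, and 18 had an interval within ±1. That median was -0.01 without WT ZT13 replicate 9. The summed level of the list was 24619.6 to 25262 in WT ZT13 and 29722 to 31485 in Bmal1, without overlap, beside 14884 to 25606 in WT ZT5. Abundant members weigh most in such a sum. S100a8 averaged 1414.5 in WT ZT13 and 3076.7 in Bmal1, and S100a9 5549.8 and 9594.5. The list as a whole did not move to 1 side, with 14 differences above 0 and 13 below. Csf3r differed by 0.09 (-0.30 to 0.49). Mmp9, gelatinase B, was at 1466, 1429 and 1277 and 1978, 1848 and 1805, higher without overlap but not past the threshold (0.43, limma adjusted p = 0.507). Of 19 genes of neutrophil ageing and homing, Itgax was called higher and Itgam lower, and 13 had an interval within ±1. Bmal1 lay wholly above WT ZT13 for 3 of the 19 and wholly below for 6, beside 6.66% and 7.69% of all genes. This list summed to 15992.9 to 17261.0 in WT ZT13 and 15448.5 to 15878.4 in Bmal1, lower without overlap. Cxcr4, which holds neutrophils in the marrow and rises as they age, was at 653, 501 and 393 in WT ZT13 and 509, 588 and 496 in Bmal1 (0.07, -0.46 to 0.59), and Cxcr2, the receptor that draws them out, at 2324, 2377 and 2072 and 2142, 2082 and 1931 (-0.14, -0.51 to 0.23). Both overlapped between the groups. Cd44, a receptor for hyaluronan, was lower without overlap by an amount inside the band (-0.26, -0.66 to 0.15), and Icam1 was at 5.41, 1.06 and 1.46 and 23.5, 14.1 and 9.39, low in both and not past the threshold.

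Granule and oxidase genes gave 1 call, that of Itgam in the gelatinase list. The 12 specific granule genes had a median of 0.06 (-0.02 to 0.15 over the alternatives, negative without WT ZT13 replicate 8 and under DESeq2) and included Hp, haptoglobin (-0.01, -0.44 to 0.42), and Lyz2, lysozyme (0.14, -0.23 to 0.51). The 12 gelatinase genes had a median of 0.01 that changed sign under 7 of 18 alternatives. Only 3 azurophil genes were tested, and Prss57, a serine protease of these granules, was at 0.524, 0 and 0.974 in WT ZT13 and 5.38, 6.51 and 9.57 in Bmal1, which is 0 to 55 reads per library. The 7 NADPH oxidase genes had a median of 0.27 (0.16 to 0.42 over the alternatives). Cyba, the p22phox subunit, was at 159, 204 and 171 and 287, 336 and 296 and did not pass (0.78, limma adjusted p = 0.131).

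Cytoskeletal genes were the best resolved list. All 20 motility and actin genes were tested, none was called, and 17 had an interval within ±1 (median 0.06). Actb differed by 0.14 (-0.31 to 0.59) and Lcp1, the actin-bundling L-plastin, by -0.04 (-0.47 to 0.40). Bmal1 lay wholly above WT ZT13 for 8 of the 20 and wholly below for 3, beside 6.66% and 7.69% of all genes. The list summed to 24997 to 27353 in WT ZT13 and 30743 to 31352 in Bmal1, without overlap. Tmsb4x, the actin-sequestering thymosin, had the largest difference, at 3630.1, 4549 and 4652 in WT ZT13 and 8374, 8153 and 7347 in Bmal1, without overlap (0.90, limma adjusted p = 0.0649). Tmsb4x was at 8516 and 7164 in the Cxcr2 libraries and 4967, 7160 and 8300 in the Cxcr4 libraries, all above WT ZT13. Gsn, the severing protein gelsolin, was at 190.1, 170.4 and 177 and 305, 263 and 369 (0.79, limma adjusted p = 0.178). Glycolysis genes had a median of 0.06 over 17 with no call and 11 intervals within ±1, among them Pkm (0.06, -0.38 to 0.49). Of 12 chemoattractant receptors, none was called and 9 had such an interval (median -0.02, positive without any 1 of the 3 Bmal1 libraries), including C5ar1 (-0.10, -0.55 to 0.35).

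Signalling and stress genes also passed no threshold apart from Il1r2, the single call among 7 genes of the interleukin-1 system (median -0.12, positive without WT ZT13 replicate 2). Il1b itself differed by 0.22 (-0.18 to 0.62) and Il1rap, the co-receptor, by -0.77 (-1.30 to -0.23). The 20 immediate early genes had a median of -0.21 (-0.28 to -0.09), with Fos at 0.05 (-0.59 to 0.69), and the 20 genes of NF-kB feedback 0.14 (negative without WT ZT13 replicate 8). Interferon-stimulated genes had a median of -0.02 over 28 (-0.14 to 0.08 over the alternatives). Rsad2, the antiviral viperin, was at 615, 786 and 634 in WT ZT13 and 1143, 704 and 831 in Bmal1 with overlap, while all WT ZT5 values, 225, 371 and 366, were lower. Oas3, a sensor of double-stranded RNA, likewise stood at 1086 to 1363 in WT ZT13, 729 to 1175 in Bmal1 and 501 to 721 in WT ZT5. The 11 Fc receptors and adaptors had a median of 0.07 (negative without WT ZT13 replicate 8). The 19 survival and death genes had a median of -0.15 (-0.23 to -0.02), with the neutrophil survival factor Mcl1 at -0.21 (-0.60 to 0.17).

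Chaperones had the most negative median of the 28 lists in this fit. Of 19 heat shock and endoplasmic reticulum chaperones, 16 had a difference below 0, the median was -0.53 (-0.69 to -0.36 over the 18 alternatives), and none was called. Hspa8, the constitutive Hsp70, was at 461, 530.0 and 677 in WT ZT13 and 306, 439.9 and 379 in Bmal1, without overlap (-0.56, -1.05 to -0.08, limma adjusted p = 0.482). Hsp90b1, the endoplasmic reticulum form of Hsp90, was at 77.2, 87.1 and 122 and 62.2, 42.6 and 75 (-0.67, -1.28 to -0.06), and Hspa5 differed by -0.35 (-0.88 to 0.18). Of 14 cholesterol and lipid genes none was called (median -0.27, -0.38 to -0.02), with Abcg1, a cholesterol exporter, at 0.33 (-0.28 to 0.94). The 8 mitochondrially encoded genes had no call (median -0.18, positive without WT ZT13 replicate 8), and mt-Co1 differed by -0.06 (-0.68 to 0.57). The 10 cell cycle genes had a median of -0.50 (-0.92 to -0.26), and their Hmgb2, an abundant chromatin protein, differed by 0.03 (-0.35 to 0.40).

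**Figure D4:**
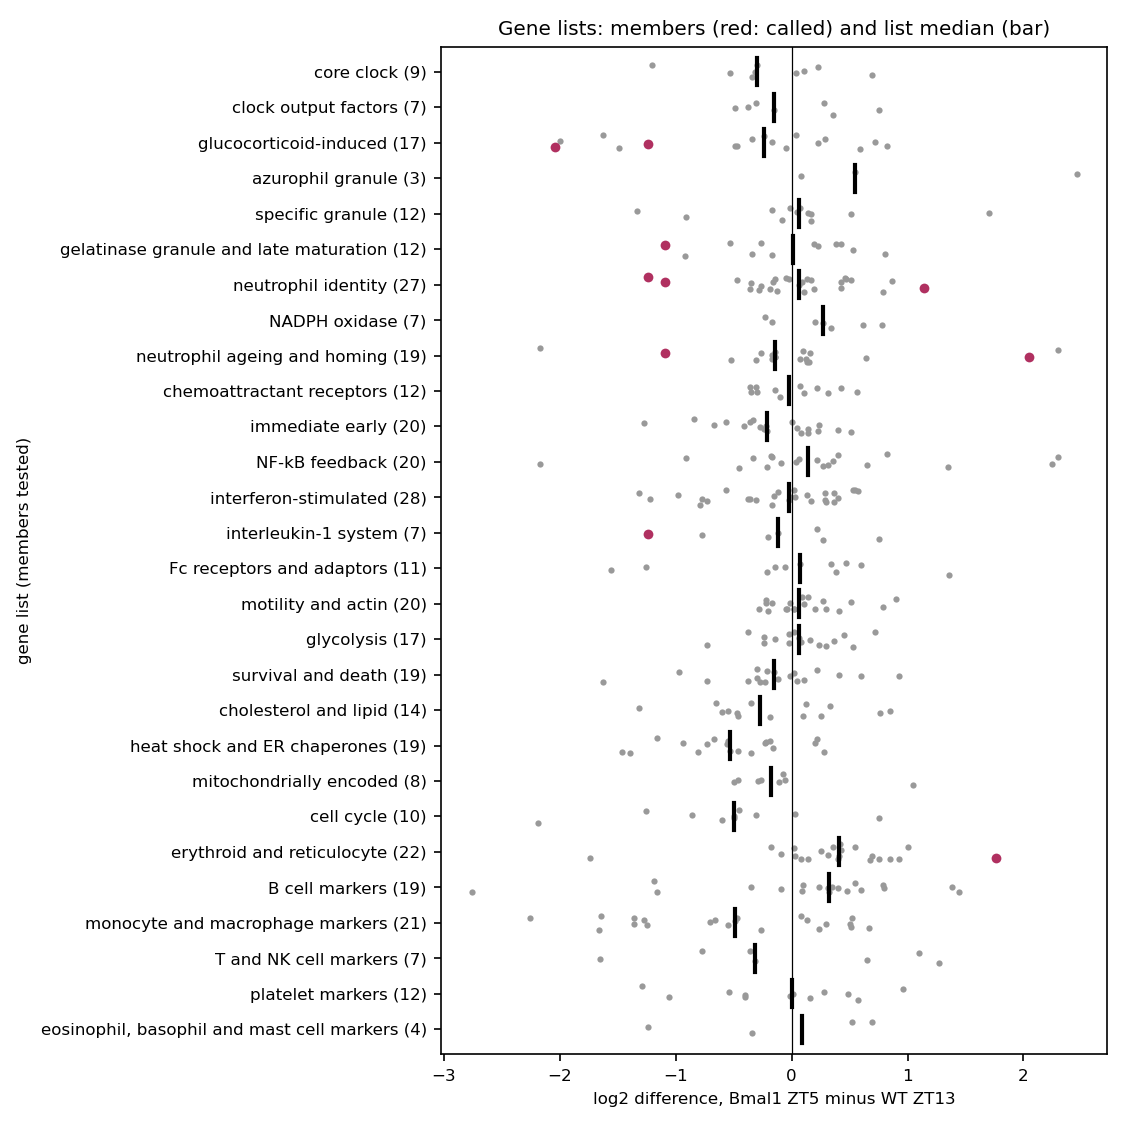
Each point is a gene tested, placed by its log2 difference, Bmal1 ZT5 minus WT ZT13, in the row of its list, with called genes in red and the list median as a bar. The numbers in brackets are the members tested, and most medians lie near 0.

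Markers of other blood cells were compared because a sort by Ly6G can carry other cells along. In such bulk samples, fewer cells of a type and less RNA per cell cannot be told apart. Monocyte and macrophage markers summed to 2005 to 2408 in WT ZT13 and 2288 to 2835 in Bmal1 (21 tested, none called, median -0.49). Their differences were above 0 for 8 and below 0 for 13, with Ccr2 and F13a1 among the 13. Their defining receptor Ccr2 was at 9.08, 80.5 and 51.2 and 16.1, 10.0 and 1.04, and F13a1 at 6.98, 90.3 and 87.9 and 13.4, 16.2 and 7.65, with WT ZT13 replicate 2 as low as the Bmal1 libraries for both. B cell markers summed to 326 to 677 and 530 to 633 (19 tested, none called, median 0.32, negative without WT ZT13 replicate 2), beside 714 to 4805 in WT ZT5. Of the 19, 14 had a difference above 0 and 5 below. Cr2, a complement receptor of B cells, was 1 of the 5. It was listed at 0 in all 3 Bmal1 libraries and did not pass (limma adjusted p = 0.503). Platelet markers summed to 176 to 1340 in WT ZT13 and 541 to 669 in Bmal1, T and NK cell markers to 17.3 to 45.8 and 12.0 to 56.7, and markers of eosinophils, basophils and mast cells to 36.8 to 54.3 and 17.9 to 55.0. None of these sums was without overlap between the groups, and their part in single genes was not tested.

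The mutant was also placed on the scale of whole profiles. The distance between 2 libraries was the root mean square of their log2 differences over the genes tested. Between WT ZT13 and Bmal1 it averaged 1.330 (1.258 to 1.438 over 9 pairs), against 1.242 among the WT ZT13 libraries and 1.355 (1.318 to 1.373) among the Bmal1 libraries. The 3 pairs with WT ZT13 replicate 9 (1.381, 1.402 and 1.438) were further apart than any pair of Bmal1 libraries. The mean between the groups exceeded that within them by 0.031 (exact permutation test, 2-sided p = 0.1, the smallest that 20 assignments allow). Without WT ZT13 replicate 9 the difference was -0.025 (exact permutation p = 0.4). The Bmal1 libraries lay 1.369 from WT ZT5 and 1.330 from WT ZT13, nearer to the evening by 0.039, which was within the spread of the WT libraries (exact permutation test, 2-sided p = 0.8, smallest possible 0.1). This order depended on 1 midday library: without WT ZT5 replicate 5 the difference was -0.047 (exact permutation p = 0.6). The 2 WT groups averaged 1.257 from each other (1.083 to 1.504 over 9 pairs), less than the mean of Bmal1 to either. From WT ZT13, the Cxcr2 libraries averaged 1.318 and the Cxcr4 libraries 1.374, on either side of the 1.330 of Bmal1. Nearness to the evening was not shown to be greater in Bmal1 than in the other Cre mutants, whose libraries had a mean of 0.056 against 0.039 (difference -0.017, exact permutation test, 2-sided p = 0.125, smallest possible 0.0179). All mutants were compared with the same WT libraries. The difference was -0.019 without WT ZT5 replicate 5 and -0.029 without WT ZT13 replicate 8, each with an exact permutation p of 0.0179, and it then left Bmal1 the less near of the 2 sets.

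**Figure D5:**
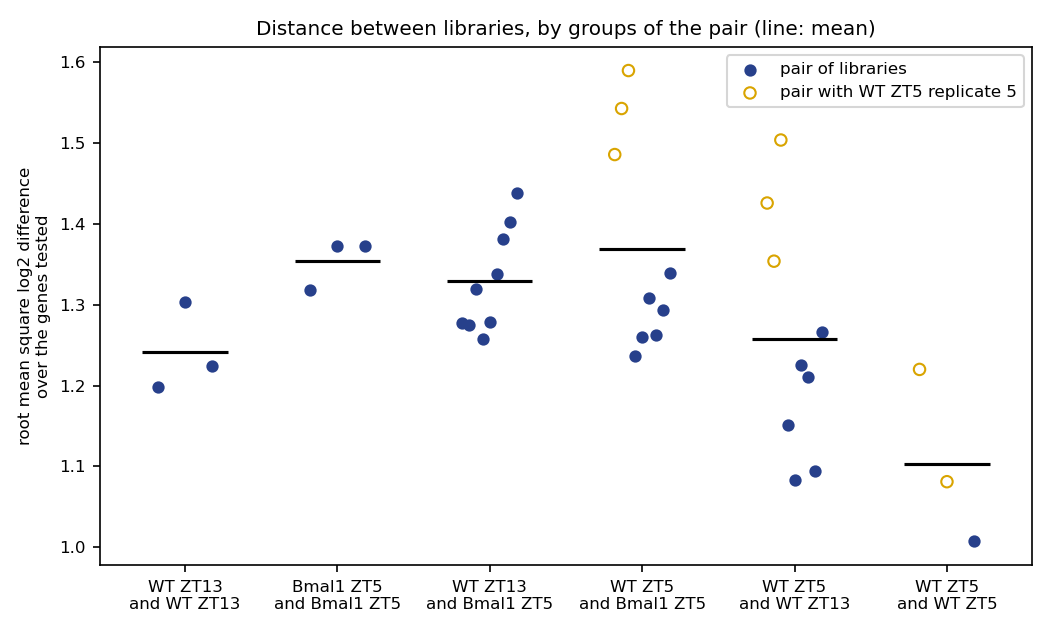
Each point is 1 pair of libraries, placed by the groups of the pair on the x axis and by the root mean square log2 difference on the y axis, which does not start at 0. Lines are means, open circles are pairs with WT ZT5 replicate 5, and the pairs of WT ZT13 with Bmal1, from 1.258 to 1.438, lie on both sides of the pairs within Bmal1, from 1.318 to 1.373.

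A trend with transcript length ran through the contrast. Over 5 equal bins, by exonic length, of the 6583 genes whose mean value was 10 or more, the median log2 difference went from 0.14 in the shortest (median length 1832 bases) through 0.05, 0.00 and -0.03 to -0.12 in the longest (10973 bases). In single libraries, the shortest minus the longest bin gave 0.15 to 0.17 in Bmal1 and -0.14 to -0.02 in WT ZT13, without overlap. It was 0.21 to 0.26 in Cxcr2, -0.16 to 0.02 in Cxcr4 and -0.29 to 0.11 in WT ZT5. S100a8 and Tmsb4x, which had higher values in Bmal1, have exonic lengths of 694 and 1371 bases, and Ahnak and Sla, which were lower, 19938 and 9186. With the trend removed from each library, an alternative chosen after the calls were seen, 16 of the 18 calls remained and those of Sla and Sfpq were lost.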

How the data were processed

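The deposited table holds a normalized signal for each of 11288 genes in each library, made by the authors. Tools named in the submitters' processing notes, without their roles, are RSEM 1.2.3, CASAVA 1.8.2 and cutadapt, with the genome GRCm38. How the authors normalized is not given in the sources used. Every value was a whole number of reads times 1 constant per library (100% of values within 1e-06 reads, 1 read worth 0.127 to 0.244), so whole reads were recovered by division for the count tests. These called 10 genes with edgeR and 100 with DESeq2. The labels name no molecular identifiers, so reads are not independent molecules, and the floor of 3 reads per library covers counting error only. Symbols and coordinates of 11188 identifiers came from GENCODE and 100 were without one. Promoter windows came from RefSeq.

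The main test was limma-trend on log2(value + 1) (limma 3.58.1, R 4.3.3). The fit held all 14 libraries in 5 groups, of which those outside the contrast shared only the estimate of the spread. A gene was tested if its mean value was 1 or more. Each interval is limma's 95% interval, and each p is limma's, adjusted by Benjamini-Hochberg over all genes tested. The fit was tested on simulated data with known changes. There it called 7 of 100 genes changed by a log2 of 1 and 36 of 100 changed by 2. It also called 3 of 11055 unchanged genes. The 95% interval held the true value for 98%, 89% and 95.1% of these 3 sets, so many real changes of this size would go uncalled. Distances between libraries were compared by exact permutation over libraries.

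The contrast, the 28 lists (437 members, 372 tested) and the tests were chosen with earlier results of these data known, so they are no independent evidence. Named genes were, per direction, the 12 with the largest difference among called genes whose mean log2 value over the 6 libraries was 3 or more and whose groups were fully apart, without pseudogenes or predicted genes; the rule fills a direction with fewer than 5, which was not needed. The 9 evening genes, the targeted receptors, from each list up to 4 members by smallest p, and up to 2 abundant members per list with an interval within ±1 were also eligible, and not all are printed. Alternatives were another pseudocount (0.1), filters (none, or a mean of at least 10), quantile normalization, DESeq2 size factors, array weights, edgeR 4.0.16, DESeq2 1.42.0, limma-voom, fits of 11 or 6 libraries, and each library left out in turn.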

Additional observations from a re-analysis of the deposited data

How the results depend on the processing

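Against 18 called genes (5 higher, 13 lower), the 11 libraries without WT ZT5 gave 53 (20 and 33), the 6 libraries alone 33 (15 higher), DESeq2 100 (29 and 71) and edgeR 10 (2 and 8), and 10 lay outside 20 Mb of Arntl. Other settings gave 16 to 25. Leaving out 1 library gave 14 to 20 calls, 2 to 5 higher and 9 to 17 lower. Of the 18 genes, 18 were shared with the 11-library fit, 14 with the 6 libraries, 16 with DESeq2 and 10 with edgeR. Gm1966, Gdpd3, Trim30b, Itgax and Gm15758 were called under all 18 alternatives, while edgeR and DESeq2 did not call Trim12a or Trim30d. With 1 library left out, the mean distance between minus within groups ranged from -0.025 (without WT ZT13 replicate 9) to 0.067, and the distance to WT ZT5 minus that to WT ZT13 from -0.047 (without WT ZT5 replicate 5) to 0.089. The lower nearness of Bmal1 than of the other mutants passed under quantile normalization (-0.026, exact permutation p = 0.0357) and ranged from -0.029 to -0.009 with 1 library left out. The cause of these shifts was not tested. Counted as pairs of a named gene and a setting, no called gene reversed direction, 64 pairs lost a call and 32 gained one. Against these, 2712 pairs stayed on their side of the threshold, where a change of direction in an uncalled gene was not counted. No paired analysis was possible because the groups compared share only replicate number 2. Low genes are limited by depth and by few replicates, since no interval among the lowest 3752 genes lay within ±1.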

Other observations

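The 11-library fit, which leaves out the WT ZT5 libraries, called 35 genes beyond the 18. Among those higher in Bmal1 were a calcium-binding protein, an antioxidant enzyme and adaptors. S100a6, a small calcium-binding protein, was at 190.0, 212 and 244 in WT ZT13 and 408, 415 and 406 in Bmal1, without overlap (limma adjusted p = 0.00769 in that fit). Gpx1, the glutathione peroxidase that removes hydrogen peroxide, was at 241, 308 and 314 and 506, 517 and 533 (limma adjusted p = 0.0308), and the signalling adaptor Tyrobp at 605, 641 and 609 and 862, 1050.0 and 912 (limma adjusted p = 0.034). All 3 were also high in the Cxcr2 libraries, where S100a6 was at 601 and 568. In the Cxcr4 libraries S100a6 was at 362, 617 and 532, also above WT ZT13. Gpx1, at 209, 396 and 315, and Tyrobp, at 576, 640 and 638, overlapped WT ZT13 there. Specc1, a cytoskeletal adaptor, was at 63.7, 94.9 and 69.4 in WT ZT13 and 173, 173 and 171 in Bmal1, a close group of values, while Cxcr2 and Cxcr4 stood at 64.8 and 76.5 and 37.5, 27.5 and 33.3. These genes were picked once their values were known, and they were not called by the fit of all 14 libraries.

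Lower in Bmal1 in the same fit were Ccnd3, the cyclin that drives entry into S phase, at 323, 249 and 414 against 525, 502 and 615 in WT ZT13 (limma adjusted p = 0.0328), and Mxd1, a repressor that opposes MYC during maturation of myeloid cells, at 862, 864 and 921 against 1246, 1369.9 and 1283 (limma adjusted p = 0.0351). WT ZT5, at 257, 395 and 339 for Ccnd3 and 696, 1050.0 and 885 for Mxd1, overlapped Bmal1 for both. Akap13, an anchoring protein that activates RhoA, was at 1295, 1042 and 1137 against 2011, 1724 and 1912 (limma adjusted p = 0.00426), below WT ZT5 (1566, 1854 and 1736) as well. Apobec3, an antiviral cytidine deaminase, was at 65.6, 65.1 and 39.8 against 109.8, 145 and 132 (limma adjusted p = 0.0298), and also below WT ZT5 (168, 96.9 and 103). None of these genes overlapped between the 2 groups.

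The Bmal1 libraries had fewer genes above 0 than the WT ZT13 libraries, 9920 to 10148 against 10256 to 10604, at 5426845 to 6449119 against 4082276 to 5454088 reads. Of all 11288 genes, 59 were above 0 in all 3 WT ZT13 libraries and at 0 in all 3 Bmal1 libraries, and 18 were the reverse. The Cxcr2 libraries had 10094 to 10097 such genes, the Cxcr4 libraries 10171 to 10323 and the WT ZT5 libraries 10747 to 11022.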
